A study of Mus musculus with 16 samples.

Results

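The mitosis genes are 34 genes whose products act in cell division: entry kinases and cyclins, kinetochore and checkpoint proteins, spindle motors, cytokinesis factors and markers of dividing cells. They were chosen by name, with earlier results of these data known. For each gene the array feature with the highest mean over the 16 arrays was used, and 33 of the 34 had such a feature among the 20725 genes measured (Ccnb1 was not analysed here). Single-colour Agilent arrays measured total RNA of AT2 cells (alveolar epithelial type II cells) taken from mouse pups on postnatal day 3. The groups, taken from the sample titles, were Fgf10+/- hyperoxia (2 arrays), wild-type hyperoxia (6), Fgf10+/- normoxia (4) and wild-type normoxia (4), whereas the series text gives 4 per group. Hyperoxia was 85% oxygen in a chamber from day 0 to day 3 after birth, and normoxia is room air. Fgf10+/- mice carry 1 working copy of Fgf10, a growth factor of the lung mesenchyme. The sources used here do not give how the AT2 cells were isolated or whether an array held RNA of 1 pup or of several, so p-values measure the spread between these samples.

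AT2 cells make surfactant, and they also divide to renew themselves and to give rise to the flat type I cells of the alveolus. Genes of mitosis are transcribed late in the cell cycle, are low in resting cells and are largely switched on as a programme, so their summed RNA is widely read as a measure of dividing cells. Cyclin-dependent kinase 1 with its cyclins starts mitosis, kinetochores attach chromosomes to the spindle, the checkpoint holds anaphase until all are attached, and the anaphase-promoting complex then triggers separation and exit. In RNA of a whole cell preparation, fewer dividing cells and less mitotic RNA per dividing cell cannot be told apart.

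Values are log2 intensities as the authors deposited them, and a fold change is a difference of group means on that scale. Member means over the 16 arrays ran from 3.67 (Aurkb) to 9.45 (Birc5), with a median of 6.22, and the median of all values on the arrays was 4.34. Surfactant genes, which define AT2 cells, were among the brightest: Sftpc lay at 15.95 to 15.98 and Sftpb at 13.19 to 14.55 on the 16 arrays. The highest value on any array was 15.982, so Sftpc lay at the top of the scale, where differences between arrays could not be read. Thymocyte genes were also present on some arrays. The mean of Rag1, Dntt, Ptcra, Cd8a and Ccr9 was 4.36 to 4.42 in Fgf10+/- hyperoxia, 3.64 to 4.46 in wild-type hyperoxia, 4.18 to 7.10 in Fgf10+/- normoxia and 4.23 to 7.22 in wild-type normoxia. The 4 highest arrays were Fgf10+/- normoxia replicates 1, 2 and 4 and wild-type normoxia replicate 4. Thymocytes divide rapidly, so the main results are given with and without these 4 arrays, and with the thymocyte mean as a covariate.

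The mean of the mitosis genes was lower in hyperoxia than in normoxia in both genotypes. The mean of the 33 members was 5.44 and 5.53 on the Fgf10+/- hyperoxia arrays, against 6.75, 7.25, 6.25 and 6.85 in Fgf10+/- normoxia. It was 5.25, 5.67, 5.55, 5.40, 6.36 and 5.88 in wild-type hyperoxia, against 6.78, 6.25, 5.91 and 7.16 in wild-type normoxia. The Fgf10+/- arrays did not overlap, whereas wild-type hyperoxia replicate 5 lay above normoxia replicates 2 and 3. That replicate was the highest of its group in 22 of 33 members, and it had 22 members above their own median over the 16 arrays, against 2 to 8 on the other wild-type hyperoxia arrays. In normoxia, wild-type replicate 3 had 14 members above their median and the other 7 arrays had 22 to 32. The SD of the array mean within groups was 0.43.

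**Figure D1:**
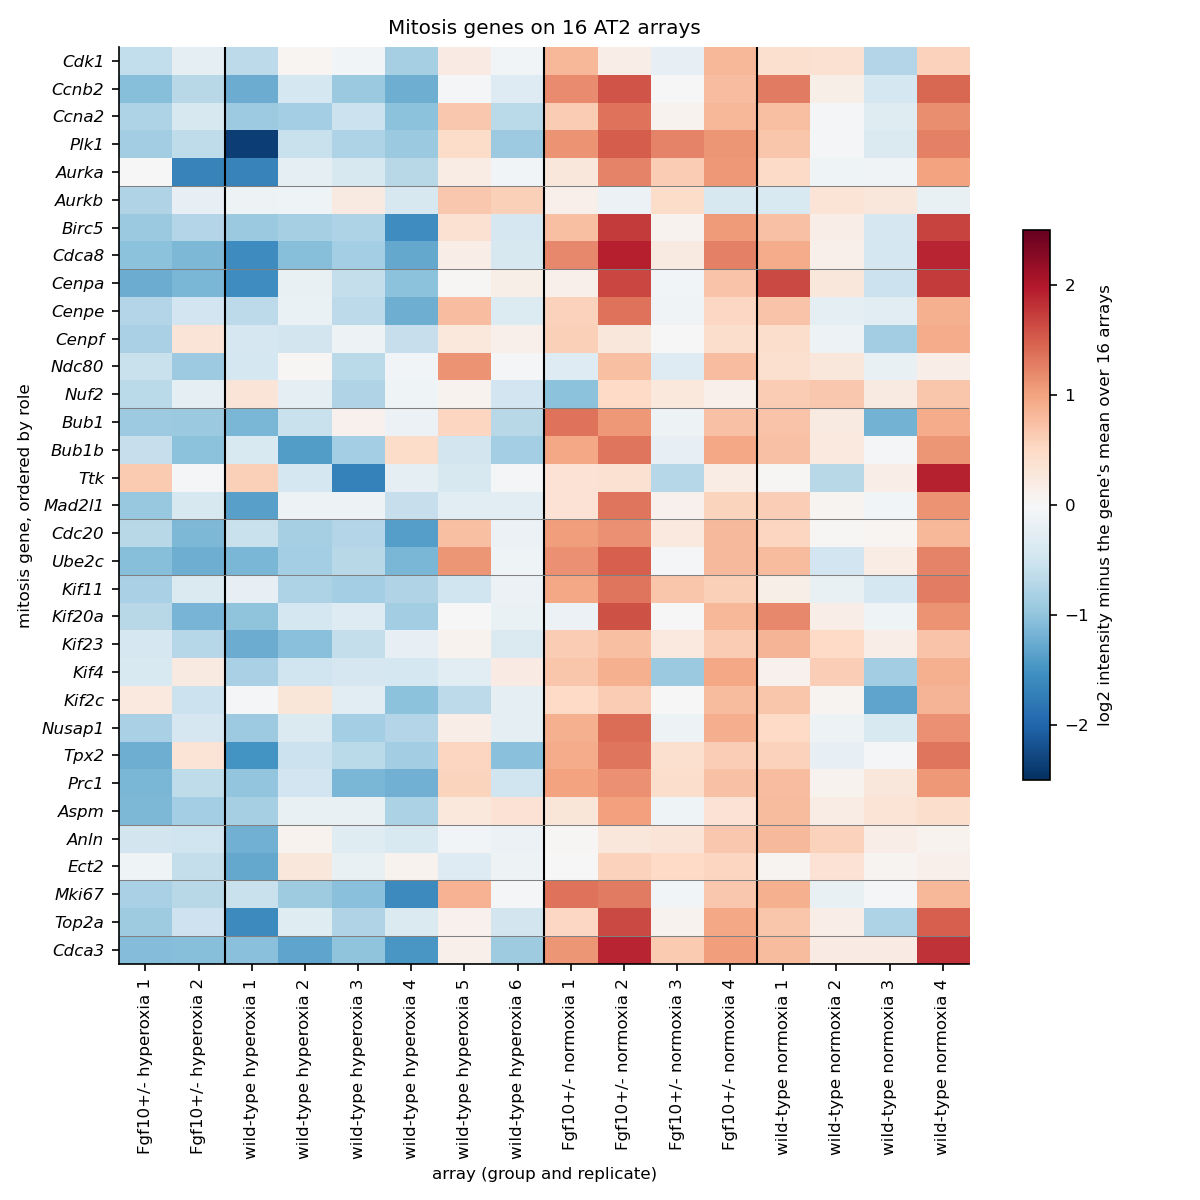
Log2 intensity of 33 mitosis genes (rows, ordered by role) on 16 arrays (columns, by group and replicate), each minus the gene's mean over the arrays. Blue fills most hyperoxia columns and red most normoxia columns, wild-type hyperoxia replicate 5 and wild-type normoxia replicate 3 stand between them, and Aurkb and Ttk do not follow the other rows.

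In wild type, 32 of 33 members were lower on average in hyperoxia, and 2 fell past the test, Kif23 and Cdca3. The median difference was -0.85, against -0.08 for all genes tested, of which 58.3% were negative. In limma's fit with Benjamini-Hochberg adjustment over all genes, 2 of 33 members were called lower, against 1.36% of all genes. At an unadjusted p under 0.05, 22 members were lower, against 10.8% of all genes. The 2 groups did not overlap in 4 members (Kif23, Mad2l1, Cdca3 and Anln), against 4.02% of all genes, and in 11 members without hyperoxia replicate 5, against 4.74%.

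Cdca3, whose product takes part in the turnover of the mitotic entry inhibitor Wee1, had the largest difference of the 33 members in wild type. Its level was 5.50 to 7.08, median 5.93, in wild-type hyperoxia, against 7.73, 7.16, 7.15 and 8.75 in wild-type normoxia. Its average was 6.02 ± 0.56 in the 6 hyperoxia arrays and 7.70 ± 0.76 in the 4 normoxia arrays (SD). The groups were separate, and hyperoxia replicate 5 lay just below the lowest normoxia array. The fall was 3.20-fold (log2 -1.68, SE 0.35, limma adjusted p = 0.0128). It was -1.17 with the thymocyte covariate (limma adjusted p = 0.0345) and -1.33 without the 4 thymocyte-rich arrays, where it did not pass (limma adjusted p = 0.0627). Without wild-type normoxia replicate 4 it was also -1.33 (limma adjusted p = 0.0508).

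Kif23, a kinesin of the central spindle that is needed to complete cytokinesis, lay at 4.21 to 5.53, median 4.96, in wild-type hyperoxia, against 6.30, 5.94, 5.61 and 6.17 in wild-type normoxia. The highest hyperoxia array was below the lowest normoxia array. Averages were 4.89 ± 0.50 in the 6 hyperoxia arrays and 6.00 ± 0.30 in the 4 normoxia arrays (SD), and Kif23 fell 2.17-fold (log2 -1.12, SE 0.25, limma adjusted p = 0.0183). The difference was -0.98 with the covariate and -1.06 without the 4 thymocyte-rich arrays (limma adjusted p = 0.0742 and 0.113). The call was also lost without wild-type normoxia replicate 1 (-1.02), 2 (-1.14) or 4 (-1.06).

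Prc1, which bundles the microtubules of the central spindle, missed the threshold in wild type by little. It lay at 6.08 to 7.83, median 6.54, in hyperoxia, against 8.06, 7.36, 7.56 and 8.36 in normoxia. Replicate 5 was the one hyperoxia array inside the normoxia range. The difference was -1.18 (SE 0.31, limma adjusted p = 0.0501). Leaving out hyperoxia replicate 5 gave 6 called members (Ccna2, Plk1, Kif23, Cdc20, Prc1 and Cdca3) among 472 genes called, where the fit of all arrays called 649. Leaving out normoxia replicate 3 gave 5 (Ccnb2, Cenpa, Kif23, Cdca3 and Cdca8) among 542, and leaving out hyperoxia replicate 4 gave 3 (Bub1b besides the 2) among 679. Leaving out normoxia replicate 1 or 2 gave 1 (Cdca3) among 637 and 323, and leaving out normoxia replicate 4 gave 0 among 381.

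**Figure D2:**
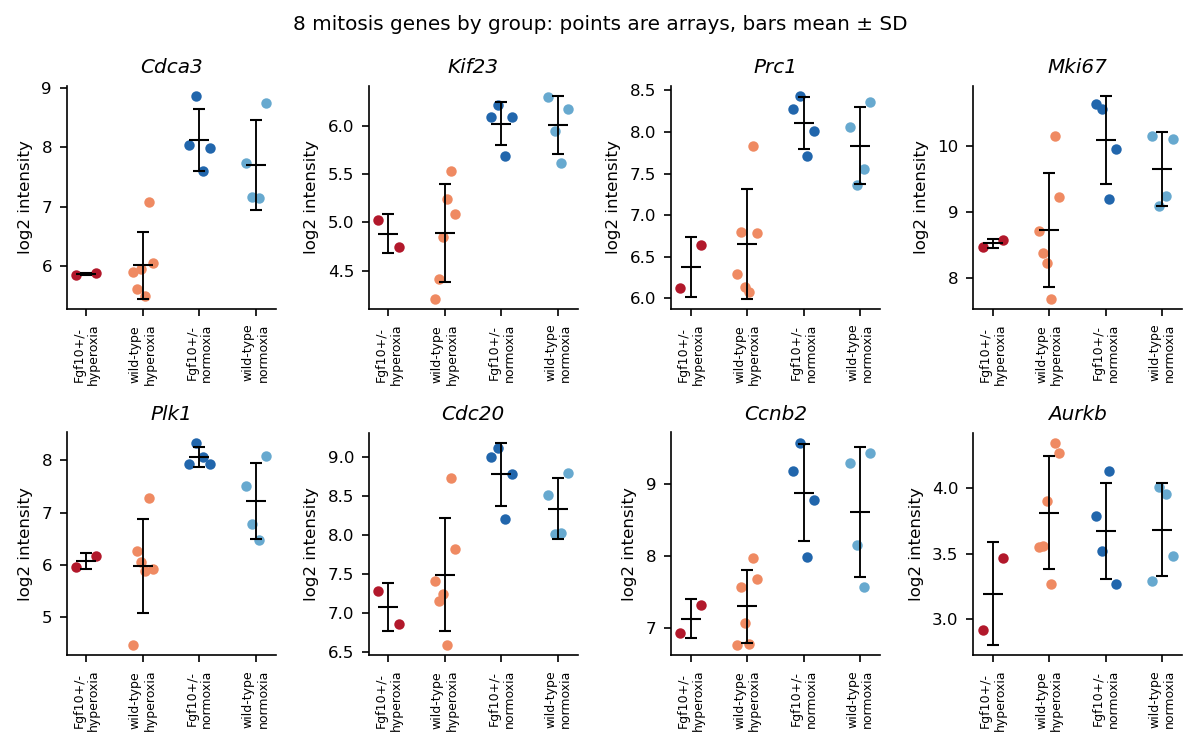
Log2 intensity of 8 mitosis genes by group, with 1 point per array and the mean ± SD as bars. In Cdca3 and Kif23 all hyperoxia points lie below all normoxia points, in Prc1, Plk1 and Cdc20 wild-type hyperoxia replicate 5 reaches the normoxia range, and in Aurkb the groups overlap.

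In Fgf10+/- cells 32 of 33 members were lower on average in hyperoxia, with a median difference of -1.39, against -0.04 for all genes, of which 53.4% were negative. Prc1 and Cdca3 fell past the test, 2 of 33 against 1.26% of all genes called lower. At an unadjusted p under 0.05, 27 members were lower, against 9.36% of all genes. Of the 33 members, 27 had both hyperoxia arrays below all 4 normoxia arrays, against 13.6% of all genes.

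Cdca3 lay at 5.86 and 5.89 in Fgf10+/- hyperoxia, against 8.04, 8.86, 7.60 and 7.99 in Fgf10+/- normoxia. The gap between the groups was wider than the range within either. The fall was 4.75-fold (log2 -2.25, SE 0.47, limma adjusted p = 0.0202). Prc1 lay at 6.13 and 6.64, against 8.28, 8.43, 7.71 and 8.01, a fall of 3.31-fold (log2 -1.73, SE 0.42, limma adjusted p = 0.0402). Kif23 lay at 5.02 and 4.74, against 6.09, 6.21, 5.69 and 6.09, a log2 difference of -1.14 (SE 0.33, limma adjusted p = 0.081).

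The Fgf10+/- calls rested on 2 hyperoxia arrays. Without hyperoxia replicate 1 the difference of Cdca3 was -2.23 and that of Prc1 -1.47, without replicate 2 they were -2.26 and -1.98, and none of these passed. Prc1 was also lost without Fgf10+/- normoxia replicate 1 (-1.67), 2 (-1.62) or 4 (-1.76), and, with its difference at -1.73, without wild-type hyperoxia replicate 2 or 6, which move the shared estimate of the spread. All genes called in this comparison numbered 507 with all arrays, and 90 and 108 without hyperoxia replicate 1 and 2. In the other direction, 8 members were called without Fgf10+/- normoxia replicate 3 (503 genes in all), 7 without wild-type hyperoxia replicate 5 (488) and 5 without wild-type hyperoxia replicate 1 (567). The number was 4 without wild-type hyperoxia replicate 4 (483) or wild-type normoxia replicate 3 (465) or 4 (481). With the thymocyte covariate the median difference was -0.87 and 0 members were called, among 166 genes called. Without the 4 thymocyte-rich arrays, which leaves 1 Fgf10+/- normoxia array, the median difference was -0.81.

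Many genes of late mitosis share short promoter motifs. The cell cycle genes homology region (CHR, searched as TTTGAA or TTCGAA) is known as a binding site of the MuvB complexes, which repress these genes in resting cells and activate them before mitosis, and the CCAAT box is bound by NF-Y. RefSeq promoter windows of 250 bases before to 50 after the start (GRCm38.p6) were available for 30 of the 34 members, Ccnb1 included, and were searched on both strands. A CHR was found in 24 of these 30 members (80.0%), against 21.7% of 27025 genes with a window, and within 50 bases of the start in 22 (73.3%), against 6.12%. A CCAAT box was found in 23 (76.7%), against 41.1%, and both motifs in 21 (70.0%), against 8.61%. Among the other lists read below, the CHR share ran from 0.0% (G1 cyclins and kinases) to 66.7% (other spindle and cytokinesis genes). It was 58.3% in cohesin and condensin genes and 25.0% in DNA replication genes. The CCAAT share ran from 28.6% (anaphase-promoting complex subunits) to 77.8% (cyclin-dependent kinase inhibitors and other brakes, 7 of 9), with 66.7% in DNA replication genes. The stretches below, 5′ to 3′ on the strand of the gene with both motifs in capitals (on the opposite strand they read TTCAAA and ATTGG), are those of the 3 members that passed the test, and of Cdca8, Mki67 and Birc5 as members with other arrangements. Each covers 90 bases before to 50 after the start, and that of Mki67 200 before to 50 after. They lie at chr6:124830086-124830225 (Cdca3, plus strand), chr7:80294361-80294500 (Prc1, plus), chr9:61946750-61946889 (Kif23, minus), chr4:124936868-124937007 (Cdca8, minus), chr7:135716330-135716579 (Mki67, minus) and chr11:117849147-117849286 (Birc5, plus).
Cdca3: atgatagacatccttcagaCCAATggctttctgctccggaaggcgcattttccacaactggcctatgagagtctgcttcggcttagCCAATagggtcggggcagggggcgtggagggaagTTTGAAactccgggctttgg
Prc1: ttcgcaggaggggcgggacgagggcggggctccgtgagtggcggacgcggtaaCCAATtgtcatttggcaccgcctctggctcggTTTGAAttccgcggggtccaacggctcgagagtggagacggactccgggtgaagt
Kif23: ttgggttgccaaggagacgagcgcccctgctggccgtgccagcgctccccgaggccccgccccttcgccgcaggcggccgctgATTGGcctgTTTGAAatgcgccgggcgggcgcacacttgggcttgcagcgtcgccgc
Cdca8: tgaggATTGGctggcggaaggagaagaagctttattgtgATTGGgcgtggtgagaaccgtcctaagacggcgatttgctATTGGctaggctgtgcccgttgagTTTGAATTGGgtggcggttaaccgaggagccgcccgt
Mki67: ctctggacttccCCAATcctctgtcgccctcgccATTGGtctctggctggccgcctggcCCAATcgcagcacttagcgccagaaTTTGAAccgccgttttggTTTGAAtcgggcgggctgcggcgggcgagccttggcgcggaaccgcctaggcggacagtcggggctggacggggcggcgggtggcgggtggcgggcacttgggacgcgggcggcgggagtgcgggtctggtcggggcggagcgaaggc
Birc5: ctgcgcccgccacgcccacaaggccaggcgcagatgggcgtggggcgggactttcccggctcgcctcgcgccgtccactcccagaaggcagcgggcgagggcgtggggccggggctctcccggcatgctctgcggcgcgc

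The 3 called members each had 1 CHR close to the start and at least 1 CCAAT box upstream of it. In Cdca8 the CHR and a CCAAT box on the opposite strand overlap, in Mki67 a pair of CHR copies lies further upstream, and in Birc5 neither motif is in the window. A match of letters is a description and shows no binding.

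Among the entry kinases and cyclins (Cdk1, Ccnb2, Ccna2, Plk1 and Aurka) 0 of 5 passed the test in either genotype, and all 5 differences were negative in both, with medians of -1.64 in Fgf10+/- and -0.95 in wild type. Plk1, the kinase that drives entry and spindle assembly, lay at 5.96 and 6.18 in Fgf10+/- hyperoxia, against 7.94, 8.34, 8.07 and 7.93 in Fgf10+/- normoxia, a difference of -1.999 (SE 0.54, limma adjusted p = 0.0644). In wild type it lay at 4.47 to 7.29, median 5.99, in hyperoxia, against 7.51, 6.79, 6.47 and 8.09 in normoxia, a difference of -1.24 (SE 0.41, limma adjusted p = 0.113). Replicate 5 was the one wild-type hyperoxia array above the lowest normoxia array, and without it the wild-type difference was -1.50 and passed (limma adjusted p = 0.0394).

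Ccnb2, a B-type cyclin partner of Cdk1, showed differences of -1.76 in Fgf10+/- and -1.31 in wild type (limma adjusted p = 0.0867 and 0.0751). Cdk1 itself was dim, at 4.05 and 4.44 in Fgf10+/- hyperoxia, against 5.51, 4.84, 4.47 and 5.50 in normoxia, a difference of -0.84 (SE 0.39, limma adjusted p = 0.297). In wild type Cdk1 lay at 3.85 to 4.88, median 4.60, in hyperoxia, against 5.07, 5.05, 3.94 and 5.25 in normoxia, a difference of -0.39 (SE 0.29, limma adjusted p = 0.529). Normoxia replicate 3 placed the wild-type groups in overlap. Ccna2, the cyclin of late S phase and entry, gave -1.32 in Fgf10+/- and -0.95 in wild type, and Aurka, the centrosomal Aurora kinase, -1.64 in Fgf10+/- and -0.80 in wild type.

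The chromosomal passenger complex corrects faulty attachments and acts again in cytokinesis, and its measured members were Aurkb, Birc5 and Cdca8, none of which passed. Cdca8, the borealin subunit, lay at 7.12 and 7.04 in Fgf10+/- hyperoxia, against 9.35, 10.10, 8.38 and 9.42 in normoxia, a difference of -2.23 (SE 0.57, limma adjusted p = 0.0508). In wild type its difference was -1.47 (SE 0.43, limma adjusted p = 0.0737), with 6.58 to 8.31 in hyperoxia, against 9.09, 8.29, 7.71 and 10.05 in normoxia. Birc5, the survivin subunit and the brightest member, gave -1.74 in Fgf10+/- and -1.23 in wild type (limma adjusted p = 0.111 and 0.118), and its 2 dimmer features were also negative in both genotypes.

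Aurkb, the kinase of this complex, was the dimmest member, with 2.92 and 3.47 in Fgf10+/- hyperoxia, against 3.79, 3.52, 4.13 and 3.27 in normoxia, a difference of -0.48 (SE 0.34, limma adjusted p = 0.519). In wild type it lay at 3.27 to 4.35, median 3.73, in hyperoxia, against 3.29, 4.01, 3.96 and 3.48 in normoxia, a difference of 0.13 (SE 0.25, limma adjusted p = 0.833). No Aurkb value lay clearly above the median of all values on the arrays, 4.34.

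Kinetochore and centromere genes gave 0 called of 5 in each genotype, with all 5 differences negative and medians of -0.95 in Fgf10+/- and -0.65 in wild type. Cenpa, the histone variant that marks centromeres, lay at 4.98 and 5.08 in Fgf10+/- hyperoxia, against 6.35, 7.90, 6.15 and 6.93 in normoxia, a difference of -1.80 (SE 0.62, limma adjusted p = 0.146). In wild type the difference was -1.32 (SE 0.46, limma adjusted p = 0.136), and the normoxia arrays themselves spread widely, at 7.87, 6.51, 5.68 and 7.97. Cenpe, a kinetochore motor, gave -1.20 in Fgf10+/- and -0.65 in wild type. Ndc80 and Nuf2, which form part of the microtubule-binding complex, gave -0.95 and -0.43 in Fgf10+/- and -0.17 and -0.76 in wild type. Cenpf, a large protein of the outer kinetochore, gave -0.57 in Fgf10+/- and -0.29 in wild type.

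Spindle checkpoint genes were not called either, 0 of 4. Mad2l1, which inhibits the anaphase-promoting complex until chromosomes are attached, was separate in both genotypes: 5.99 and 6.53 in Fgf10+/- hyperoxia against 7.29, 8.27, 7.03 and 7.48 in normoxia, and 5.57 to 6.81 in wild-type hyperoxia against 7.55, 6.99, 6.86 and 8.06 in normoxia. The differences were -1.26 in Fgf10+/- and -0.89 in wild type (limma adjusted p = 0.126 and 0.128). Bub1b, its partner in the checkpoint complex, gave -1.56 in Fgf10+/- and -1.09 in wild type (limma adjusted p = 0.0944 and 0.108), and in wild type hyperoxia replicate 4 was the one array that entered the normoxia range.

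Bub1, the checkpoint kinase, was measured by 10 features, of which 10 were negative in wild type. The feature used gave -1.68 in Fgf10+/- and -0.49 in wild type, and the 10 features ran from -1.68 to -0.39 in Fgf10+/- and from -1.04 to -0.48 in wild type. On Fgf10+/- normoxia replicate 1 the 10 features spread from 3.82 to 6.68. Ttk, the kinase that starts the checkpoint, lay at 4.58 and 3.89 in Fgf10+/- hyperoxia, against 4.28, 4.31, 3.20 and 4.10 in normoxia, the one positive difference in this genotype (0.26, SE 0.61, limma adjusted p = 0.881), and gave -0.73 in wild type (limma adjusted p = 0.425).

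Of the anaphase-promoting complex, Cdc20, its activator, and Ube2c, its ubiquitin-conjugating enzyme, were members. Cdc20 lay at 7.29 and 6.86 in Fgf10+/- hyperoxia, against 9.01, 9.12, 8.21 and 8.79 in normoxia, a difference of -1.70 (SE 0.44, limma adjusted p = 0.0542). In wild type it lay at 6.59 to 8.73, median 7.33, in hyperoxia, against 8.52, 8.01, 8.03 and 8.80 in normoxia, a difference of -0.85 (SE 0.33, limma adjusted p = 0.182). Replicate 5 was again the one hyperoxia array inside the normoxia range. Without it the wild-type difference was -1.10 and passed (limma adjusted p = 0.0435). Ube2c gave -1.995 in Fgf10+/- and -0.91 in wild type (limma adjusted p = 0.083 and 0.275), and its second feature -1.63 in Fgf10+/- and -1.12 in wild type.

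The 9 motors and spindle proteins include 2 of the 3 called members, Kif23 and Prc1, described above. The other 7 did not pass. Kif20a, the kinesin that brings the passenger complex to the central spindle, gave -1.50 in Fgf10+/- and -1.06 in wild type, and Tpx2, which activates Aurora A on the spindle, -1.26 in Fgf10+/- and -1.09 in wild type. Kif11, the motor that pushes spindle poles apart, gave -1.48 in Fgf10+/- and -0.74 in wild type. Aspm, a spindle pole protein, gave -1.39 in Fgf10+/- and -0.67 in wild type, and Nusap1, a microtubule stabiliser, -1.38 in Fgf10+/- and -0.78 in wild type. The dim kinesins Kif4 and Kif2c gave -0.48 and -0.63 in Fgf10+/-, and -0.56 and -0.40 in wild type. All 9 differences were negative in both genotypes.

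The 2 cytokinesis genes had median differences of -0.78 in Fgf10+/- and -0.58 in wild type, which were -0.81 and -0.60 with the thymocyte covariate. Anln, the scaffold of the contractile ring, lay at 6.22 and 6.17 in Fgf10+/- hyperoxia, against 6.70 to 7.35 in normoxia, a difference of -0.80 (limma adjusted p = 0.213). In wild type it lay at 5.47 to 6.75, against 7.49, 7.24, 6.83 and 6.76, a difference of -0.74 (limma adjusted p = 0.106), with the groups just separate. Ect2, which activates the small GTPase RhoA at the division site, gave -0.75 in Fgf10+/- and -0.42 in wild type.

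Mki67, which encodes the proliferation antigen Ki-67, was among the brightest members. It lay at 8.47 and 8.58 in Fgf10+/- hyperoxia, against 10.64, 10.57, 9.20 and 9.96 in normoxia, a difference of -1.57 (SE 0.55, limma adjusted p = 0.159). In wild type it lay at 7.69 to 10.15, median 8.55, in hyperoxia, against 10.16, 9.09, 9.25 and 10.11 in normoxia, a difference of -0.92 (SE 0.41, limma adjusted p = 0.245). Hyperoxia replicates 5 and 6 entered the wild-type normoxia range. A second Mki67 feature gave -1.62 in Fgf10+/- and -0.97 in wild type. Top2a, the topoisomerase that untangles chromosomes, lay at 5.16 and 5.53 in Fgf10+/- hyperoxia, against 6.12 to 7.69 in normoxia, a difference of -1.49 (SE 0.54, limma adjusted p = 0.172), and gave -0.95 in wild type (SE 0.40, limma adjusted p = 0.222).

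Members were also split by brightness. The 19 members with a mean of at least 6 had a median difference of -1.64 in Fgf10+/- and -0.95 in wild type, and the 14 dimmer ones -0.89 in Fgf10+/- and -0.62 in wild type. Some genes had dimmer features of opposite sign to the negative one used. In wild type these gave 0.04 and 0.29 for Cdk1, 0.13 for Tpx2, 0.08 for Kif2c, 0.03 for Nuf2 and 0.02 for Mad2l1. In Fgf10+/- they gave 0.63 for Tpx2, 0.61 for Nuf2, 0.51 and 0.29 for Mad2l1 and 0.51 for Ect2. Dimmer features of Birc5, Bub1, Cdca8, Mki67 and Ube2c were negative in both genotypes.

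**Figure D3:**
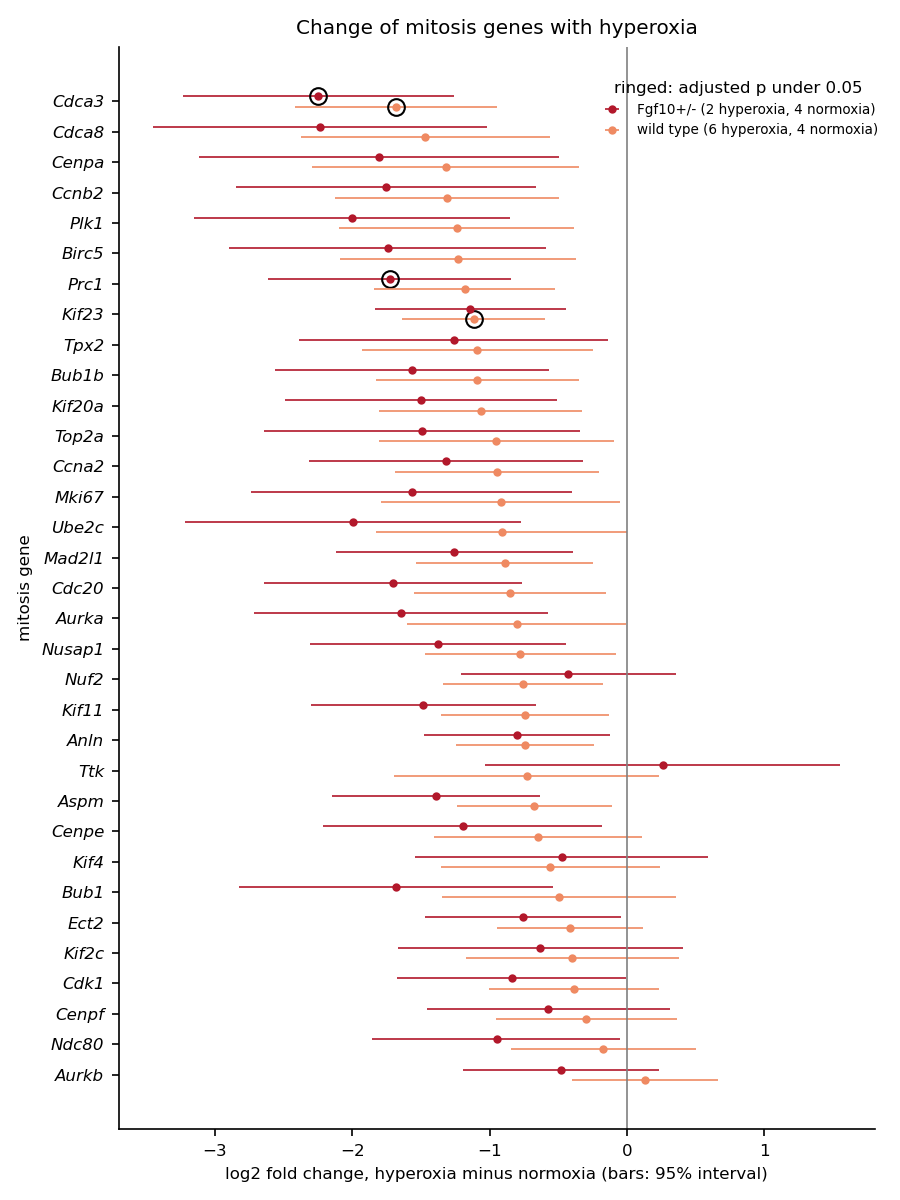
Log2 fold change of 33 mitosis genes, hyperoxia minus normoxia, in Fgf10+/- (dark) and wild type (light), with 95% intervals from limma and rings around the 4 values that passed the test (Cdca3 in both, Prc1 in Fgf10+/-, Kif23 in wild type). All means but those of Ttk in Fgf10+/- and Aurkb in wild type lie left of 0.

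Most mitosis genes had a positive slope on the thymocyte genes within groups. In a fit with the thymocyte mean as a covariate, 31 of 33 members had a positive slope, with a median of 0.39 log2 units per log2 unit of the thymocyte mean, against -0.02 for all genes, of which 46.3% had a positive slope. At an unadjusted p under 0.05, 23 members had one, against 6.82% of all genes. Birc5 (0.63), Nusap1 (0.49) and Cdca8 (0.66) passed (limma adjusted p = 0.018, 0.0245 and 0.018), 3 of 33 against 1.22% of all genes. Slopes were near 0 for Anln (-0.05), Ect2 (0.01), Nuf2 (0.03) and Aurkb (-0.10), and 0.14 for Kif23. With this covariate the median difference in hyperoxia was -0.87 in Fgf10+/- and -0.49 in wild type, with 31 of 33 members negative in Fgf10+/- and 30 in wild type.

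Some arrays were high in mitosis genes at a low thymocyte mean. Wild-type normoxia replicate 1 had a mitosis mean of 6.78 at a thymocyte mean of 4.59, and Fgf10+/- normoxia replicate 3 had 6.25 at 4.18. Wild-type normoxia replicate 2 had 6.25 at 4.82. Wild-type hyperoxia replicate 5 had 6.36 at 4.46, above both normoxia arrays at 6.25 and below wild-type normoxia replicate 1. The other 7 hyperoxia arrays lay at 5.25 to 5.88. Wild-type normoxia replicate 3 lay at 5.91 with a thymocyte mean of 4.23, next to the highest of these.

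Without the 4 thymocyte-rich arrays the median difference was -0.81 in Fgf10+/- (31 of 33 negative) and -0.67 in wild type (32 of 33 negative). For all genes it was -0.08 in Fgf10+/- and -0.09 in wild type. In wild type 0 of 33 members were called in this fit, where 278 of 20725 genes were. Calls in Fgf10+/-, which keeps 1 normoxia array in this fit, are not read. Groups were then separate in 29 of 33 members in Fgf10+/-, with 2 arrays against 1 and a share of 40.2% of all genes, and in 4 of 33 in wild type, against 5.73%. Markers of other cells were read as means per array. The mean of 6 T and NK cell markers was 5.99 to 6.10 in Fgf10+/- hyperoxia, against 5.66 to 8.91 in Fgf10+/- normoxia, and 5.61 to 7.22 in wild-type hyperoxia, against 6.12 to 9.01 in wild-type normoxia. Smooth muscle and pericyte markers (7) lay at 7.46 to 7.50 in Fgf10+/- hyperoxia, against 6.07 to 6.91 in Fgf10+/- normoxia, and at 7.23 to 8.27 in wild-type hyperoxia, against 6.21 to 9.01 in wild-type normoxia. In both lists 0 genes passed limma's adjusted test in either genotype. The T and NK medians were -1.65 in Fgf10+/- and -1.32 in wild type, and -0.20 and -0.23 with the thymocyte covariate. At an unadjusted p under 0.05, 3 and 2 of these markers were lower, against 9.36% and 10.8% of all genes. The smooth muscle medians were 1.30 and 0.59, and 0.98 and 0.63 with the covariate. At an unadjusted p under 0.05, 3 and 2 of the smooth muscle markers were higher, where 1523 and 1536 of 20725 genes were.

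Endothelial markers (7) lay at 7.46 to 8.87 in Fgf10+/- hyperoxia, against 6.98 to 7.45 in Fgf10+/- normoxia, with a median difference of 1.05 and 1 gene called higher. In wild type they lay at 7.63 to 8.87 in hyperoxia, against 7.73 to 8.24 in normoxia, with 0 called by limma and 2 higher at an unadjusted p under 0.05. Macrophage markers (6 of 6 positive in both genotypes, 0 called by limma, 1 in Fgf10+/- and 3 in wild type at an unadjusted p under 0.05) lay at 5.43 to 5.53 in Fgf10+/- hyperoxia, against 4.47 to 5.07 in Fgf10+/- normoxia, and at 5.96 to 6.98 in wild-type hyperoxia, against 4.84 to 6.30 in wild-type normoxia. Means of the endothelial, macrophage, smooth muscle, neutrophil, B cell and club cell lists did not overlap between the Fgf10+/- groups. They did overlap between the wild-type groups. Club cell means were lower in Fgf10+/- hyperoxia and the others higher. With 2 arrays against 4, 2814 of 20725 genes were separate and lower in Fgf10+/- hyperoxia, and 2561 were separate and higher. Of 7 neutrophil markers 5 were positive in each genotype, with medians of 0.96 in Fgf10+/- and 0.30 in wild type. In Fgf10+/- 1 was called lower, against 1.26% of all genes. In wild type 1 was called lower and 1 higher, against 1.36% and 1.77%. At an unadjusted p under 0.05 in limma, 2 were higher and 1 lower in Fgf10+/-, and 1 higher and 1 lower in wild type. AT2 markers were negative in 9 of 11 in both genotypes with 0 called by limma (1 in Fgf10+/- and 2 in wild type lower at an unadjusted p under 0.05), and their medians were -0.27 in Fgf10+/- and -0.47 in wild type. Medians of the B cell, erythroid, fibroblast, ciliated, club and type I cell lists ran from -0.76 to 0.43 in Fgf10+/- and from -0.65 to 0.26 in wild type, with 0 genes called by limma and 5 and 2 at an unadjusted p under 0.05. Their part in the result was not tested.

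**Figure D4:**
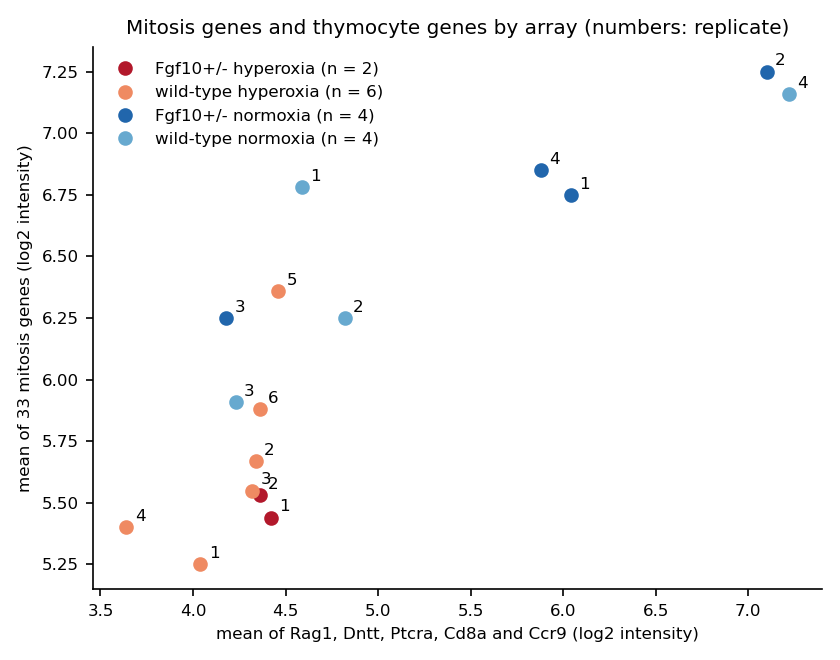
Mean log2 intensity of 33 mitosis genes (vertical) against that of 5 thymocyte genes (horizontal), with 1 point per array, coloured by group and numbered by replicate. The 4 arrays on the right are normoxia arrays with high values of both, and at thymocyte means under 5 the hyperoxia arrays, other than wild-type replicate 5, lie below the normoxia arrays.

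Genotype made no difference that passed the test in either oxygen condition. Comparing Fgf10+/- with wild type in hyperoxia, 0 of 33 members were called, as were 0.0% of all genes, and the median difference was -0.20 with 28 of 33 negative, against 47.3% of all genes. At an unadjusted p under 0.05 only Aspm was lower (-0.76, SE 0.34), where 4.37% of all genes passed in either direction. It lay at 4.42 and 4.69 in Fgf10+/- hyperoxia, below all 6 wild-type hyperoxia arrays, at 4.72 to 5.91. Such a separation was seen in 3.31% of all genes. The differences of the other members given in full were -0.21 for Mki67 (95% interval -1.31 to 0.89), -0.14 for Top2a, -0.20 for Cdk1, 0.09 for Plk1, -0.62 for Aurkb, -0.42 for Cdc20 and -0.01 for Kif23 (-0.66 to 0.65), each with a limma adjusted p = 1. Cdca3 gave -0.15 and Prc1 -0.27.

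In normoxia, 0 of 33 members differed between Fgf10+/- and wild type by limma's adjusted p, as against 0.00965% of all genes, and the median difference was 0.27 with 26 of 33 positive, where 52.1% of all genes were negative. At an unadjusted p under 0.05 Kif11 was higher in Fgf10+/- (0.70, SE 0.32, limma adjusted p = 0.82), and 6.03% of all genes passed in either direction. Differences were 0.44 for Mki67 (95% interval -0.51 to 1.39), 0.41 for Top2a, 0.25 for Cdk1, 0.85 for Plk1, -0.01 for Aurkb, 0.44 for Cdc20 and 0.02 for Kif23 (-0.55 to 0.58), with limma adjusted p of 0.853 for Plk1 and 0.94 to 0.999 for the others. Of the 4 thymocyte-rich arrays 3 were Fgf10+/- normoxia arrays, and without the 4 the median was -0.10 with 20 of 33 negative.

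The response to hyperoxia was also compared between genotypes. In this interaction 30 of 33 members were negative, against 46.2% of all genes, that is, further below normoxia in Fgf10+/-, with a median of -0.51, but 0 members passed (0.00965% of all genes did) and 0 had an unadjusted p under 0.05, where 4.11% of all genes did. Interaction values were -0.65 for Mki67 (95% interval -2.10 to 0.81), -0.54 for Top2a, -0.45 for Cdk1, -0.76 for Plk1, -0.61 for Aurkb, -0.86 for Cdc20 and -0.03 for Kif23, each with a limma adjusted p = 1. Without the 4 thymocyte-rich arrays the median was -0.11.

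Other genes of the pathway were read from further lists, and single genes of these are given for all 16 arrays only. The fit of all arrays called 1.26% of all genes lower in Fgf10+/- and 1.36% in wild type, and its Fgf10+/- calls rested on 2 hyperoxia arrays. Of 22 regulators of mitotic transcription, Foxm1, the activator of late cell-cycle genes, fell in wild type, with 4.85 ± 0.34 in the 6 hyperoxia arrays and 6.05 ± 0.30 in the 4 normoxia arrays (SD; log2 -1.21, SE 0.30, limma adjusted p = 0.0391). In Fgf10+/- 0 of the 22 passed by limma, and at an unadjusted p under 0.05 2 were lower, against 9.36% of all genes, and 1 was higher. The same Foxm1 feature gave -1.435 in Fgf10+/- (means of 4.47 in hyperoxia and 5.905 in normoxia) without passing. A dimmer Foxm1 feature gave -0.36 in wild type and 0.045 in Fgf10+/-. Of 19 genes of entry and exit control, the kinase gene Pbk fell in wild type (-1.26, limma adjusted p = 0.0283), and the kinase gene Melk (-1.71, limma adjusted p = 0.0252) and Cks2, a small subunit of Cdk complexes (-1.04, limma adjusted p = 0.0422), fell in Fgf10+/-. The median of the 19 was -0.49 in Fgf10+/- and -0.44 in wild type, and -0.35 and -0.32 with the thymocyte covariate.

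Kinetochore genes beyond the members included 30 measured genes. Pmf1, of the Mis12 complex, fell in both genotypes, by 1.51 on the log2 scale in Fgf10+/- and by 1.44 in wild type (limma adjusted p = 0.0281 and 0.00429), and a dimmer Pmf1 feature gave -0.83 in Fgf10+/- and -0.52 in wild type. Spc24, of the Ndc80 complex, also fell in both (-1.68 in Fgf10+/- and -1.24 in wild type, limma adjusted p = 0.0422 and 0.0375), while its partners Ndc80 and Nuf2 among the members did not pass. Cenpm (-1.72) and Cenpo (-1.44), both of the inner kinetochore, fell in Fgf10+/-, and the checkpoint gene Mad1l1 (-0.67) fell in wild type. Called lower were 4 of 30 in Fgf10+/- and 3 of 30 in wild type, against 1.26% and 1.36% of all genes. The median of the 30 was -0.65 in Fgf10+/- and -0.45 in wild type, and -0.24 and -0.14 with the thymocyte covariate.

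Of 22 other spindle and cytokinesis genes, Tubb5, a beta-tubulin, fell in both genotypes (-1.02 in Fgf10+/- and -0.97 in wild type, limma adjusted p = 0.047 and 0.00898). The alpha-tubulin Tuba1b fell in wild type (-0.87, limma adjusted p = 0.00549), and its second feature gave -0.44. In Fgf10+/- the feature used gave -0.605 without passing, and the second -0.182. Tubb5 and Tuba1b are general cytoskeletal genes and were bright, at 11.70 to 14.84 as group means in wild type. Kifc1 (-1.53), Fam83d (-1.45) and Dlgap5 (-1.06), all spindle genes, fell in Fgf10+/-. Called lower were 4 of 22 in Fgf10+/- and 2 of 22 in wild type, against 1.26% and 1.36% of all genes. The median of the 22 was -0.66 in Fgf10+/- and -0.41 in wild type, and -0.34 and -0.32 with the thymocyte covariate.

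Of 15 anaphase-promoting complex subunits 0 fell by limma's adjusted test (2 were lower at an unadjusted p under 0.05 in each genotype), and the medians were -0.23 in Fgf10+/- and -0.11 in wild type. The subunit gene Cdc27 rose in wild type, with 7.31 ± 0.85 in the 6 hyperoxia arrays and 5.80 ± 0.18 in the 4 normoxia arrays (SD; log2 1.51, limma adjusted p = 0.02), where 1.77% of all genes were called higher. A second Cdc27 feature of like brightness gave 0.16, and in Fgf10+/- the 2 features gave 1.45 and -0.82. Cohesin and condensin genes had 0 of 15 called by limma, with 4 lower in Fgf10+/- and 5 in wild type at an unadjusted p under 0.05, against 9.36% and 10.8% of all genes. Of the cohesin genes, Rad21 gave -0.55 in Fgf10+/- and -0.58 in wild type (limma adjusted p = 0.185 and 0.0509), and Smc1a -0.61 in Fgf10+/- and -0.37 in wild type.

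DNA replication genes, which act before mitosis, gave 0 of 30 called by limma in either genotype, with 12 lower in Fgf10+/- and 13 in wild type at an unadjusted p under 0.05 (9.36% and 10.8% of all genes), and medians of -0.79 in Fgf10+/- and -0.66 in wild type. With the thymocyte covariate these medians were -0.14 in Fgf10+/- and -0.12 in wild type, and those of the mitosis genes -0.87 and -0.49. Without the 4 thymocyte-rich arrays they were -0.14 in Fgf10+/- and -0.32 in wild type, and those of the mitosis genes -0.81 and -0.67. The difference between the lists was not tested. Mcm6, of the replicative helicase, gave -0.67 in Fgf10+/- and -0.65 in wild type, and Pcna, the polymerase clamp, -0.23 in Fgf10+/- and -0.26 in wild type.

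G1 cyclins and cyclin-dependent kinases had medians of 0.14 in Fgf10+/- and -0.19 in wild type, with 0 of 8 called by limma (1 lower in Fgf10+/- and 2 in wild type at an unadjusted p under 0.05, against 9.36% and 10.8% of all genes). Ccnd3 gave 0.12 in Fgf10+/- and -0.06 in wild type, and Cdk4 0.16 in Fgf10+/- and 0.22 in wild type. Cyclin-dependent kinase inhibitors and other brakes had medians of -0.42 in Fgf10+/- and -0.38 in wild type, with 0 of 10 called by limma (1 lower in Fgf10+/- and 2 in wild type at an unadjusted p under 0.05, against the same 9.36% and 10.8% of all genes). Cdkn1c, the p57 inhibitor, gave -1.23 in Fgf10+/- and -0.76 in wild type (limma adjusted p = 0.128 and 0.188), and the antiproliferative gene Btg1 gave -0.36 in Fgf10+/- and -0.46 in wild type.

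**Figure D5:**
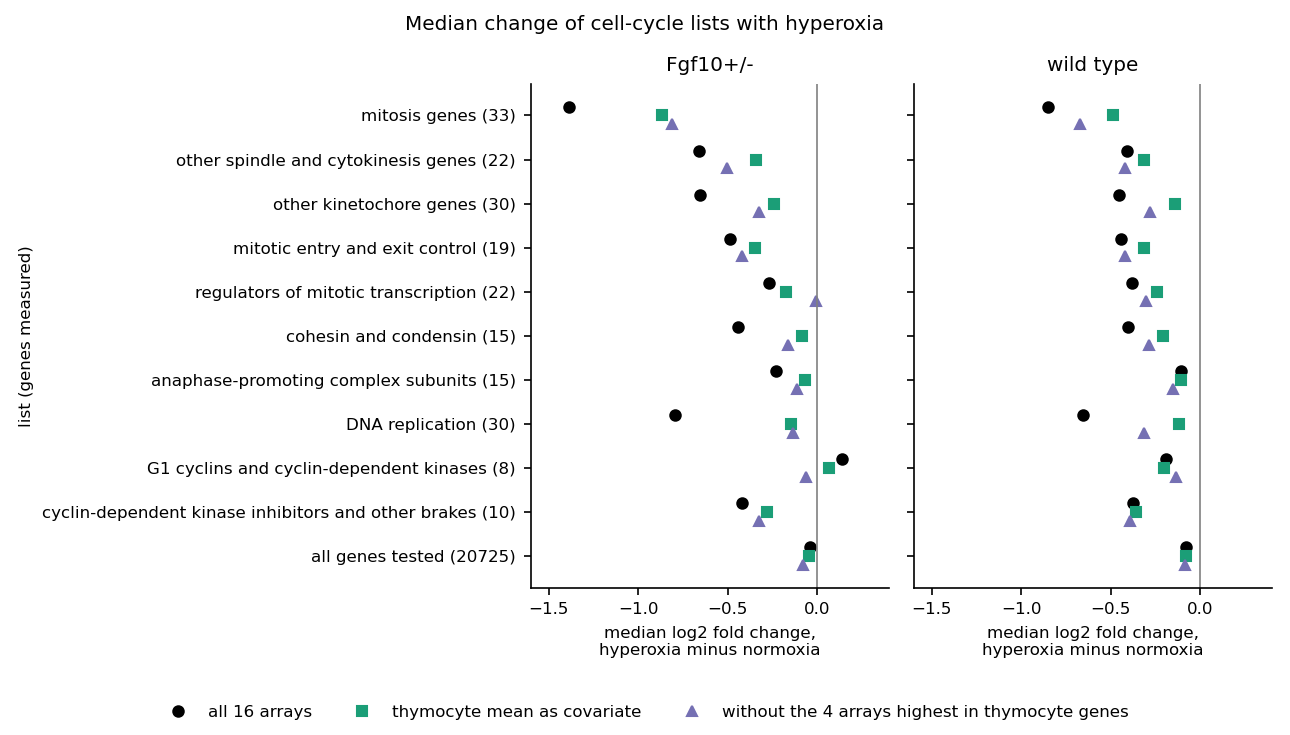
Median log2 fold change, hyperoxia minus normoxia, of 10 cell-cycle lists and of all genes tested, in Fgf10+/- (left) and wild type (right), for all 16 arrays (circles), with the thymocyte mean as a covariate (squares) and without the 4 arrays highest in thymocyte genes (triangles). The mitosis genes lie furthest left in both genotypes and under all 3 settings, and the DNA replication list moves most towards 0.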

How the data were processed

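The table holds log2 intensities as the authors deposited them, with the scale inferred from the range (-0.396 to 15.982). Once sorted, the arrays differed by at most 0.204, so their distributions had been made alike. Software, background correction and log base: the sources used here do not state them. Neither detection calls nor slide or scan information could be used, so no batch was tested, and precision is limited by the number of arrays. The series lists all normoxia samples before all hyperoxia samples. Whether the arrays were processed in that order is not given, and an effect of such an order could not be told apart from hyperoxia. Features with a missing value (65 of 62976) were dropped. The annotation gave 1 symbol for 31465 features and none for 31511. After symbols had been updated through RefSeq tables (GRCm38.p6), 20725 genes were each represented by the feature of highest mean. A group-means model of the 16 samples was fitted in limma 3.58.1 (R 4.3.3) with empirical Bayes variances, and "called" means a Benjamini-Hochberg adjusted p under 0.05 over all genes. This fit was run on simulated data with independent noise and the same spread in all groups. Those data held no thymocyte-rich arrays and no genes that move together, so the run does not cover these. Full statistics are given for members that passed and for Mki67, Top2a, Cdk1, Plk1, Aurkb, Cdc20 and Kif23, and from each other list up to 4 called genes or else the 2 brightest were named. The members and lists were chosen with earlier results of these data known. Alternatives changed the centring, the averaging of features, a filter on low values, the prior, array weights, the samples fitted, the thymocyte covariate and the replicate block. Centring on the median of the genes tested and the overlap without wild-type hyperoxia replicate 5 were added after seeing the data.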

Additional observations from a re-analysis of the deposited data

Results flagged for a closer look

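In 8 of 105 groups of values (33 members and the array means in the groups of 4 or 6 arrays) 1 array stood apart from the rest of its group by Dixon's test at the 95% level, where chance gives about 1 in 20. In wild-type hyperoxia, Ccna2 was 7.83 on replicate 5, against 6.13 to 6.62 on the other 5 arrays. On the same array Cdca3 was 7.08, against 5.50 to 6.05. Replicate 1 of this group was low in Mad2l1 at 5.57, against 6.36 to 6.81, and in Anln at 5.47, against 6.30 to 6.75. In wild-type normoxia replicate 3 was low in Cdk1 at 3.94, against 5.05 to 5.25, and in Nuf2 at 4.63, against 5.04 to 5.10. In Fgf10+/- normoxia Kif4 was 3.52 on replicate 3, against 5.15 to 5.41, and Ect2 was 6.30 on replicate 1, against 6.79 to 6.86.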

How the results depend on the processing

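The median difference of the mitosis genes stayed negative in hyperoxia under every alternative run: -1.64 to -0.81 in Fgf10+/- and -1.05 to -0.49 in wild type, with leave-one-out ranges of -1.56 to -1.17 and -1.02 to -0.67. The number of called members was less stable. In wild type, where 2 were called, it was 5 among members with a mean of at least 6, 1 in a fit of the 2 groups alone, 1 with the thymocyte covariate, 0 without the 4 thymocyte-rich arrays and 0 to 6 with single samples left out. In Fgf10+/-, also with 2, it was 1 with centring on the median of the genes tested, 7 with the filter and 5 with a trended robust prior. It was 9 with array weights, 0 with the covariate (median -0.87) and 1 to 8 with single samples other than the Fgf10+/- hyperoxia arrays left out. The fits without 1 of those 2 arrays are given above. Without the 4 arrays, which leaves 1 Fgf10+/- normoxia array, the median was -0.81. The filter tests fewer genes and the last settings use fewer samples, and for the other settings the cause was not tested. The filter left 8299 of the 20725 genes and 19 members to test. All genes called in wild type numbered 649, against 1172 with the filter and 1000 with the trended prior. They were 465 in the fit of 2 groups, 468 with the covariate and 278 without the 4 arrays. In Fgf10+/- they numbered 507, against 437 with centring on the genes tested, 332 with feature averaging and 792 with the filter. There were 692 with the trended prior, 721 with array weights, 261 in the fit of 2 groups and 166 with the covariate. For genotype in normoxia 2 genes were called and 0 to 11 under alternatives, for genotype in hyperoxia 0 and 0 to 4, and for the interaction 2 and 0 to 3. A fit of only the groups compared was not run for the interaction, which uses all 4.

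Deviations from the group mean correlated at -0.16 to 0.24 between same-numbered samples. The labels do not say whether a replicate number marks a shared litter or day, and these correlations cannot exclude it. With the replicate number as a block 3 members were called in wild type (median -1.05, 216 genes in all) and 2 in Fgf10+/- (Cdc20 and Prc1, median -1.49, 103 genes in all). With this block Aurkb in wild type was -0.11, and for genotype in hyperoxia the values were 0.008 for Mki67, 0.019 for Top2a and 0.24 for Kif23, with 0.23 for Kif23 in the interaction.

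Signs turned mostly where a difference was close to 0. For genotype in hyperoxia Kif23 was 0.01 with centring and 0.012 with array weights. For genotype in normoxia Aurkb was 0.03 with centring, 0.048 with the covariate and 0.37 without the 4 arrays, Kif23 was -0.062 with the covariate and -0.26 without the 4 arrays, and Mki67 was -0.30 and Cdk1 -0.22 without them. For the interaction Kif23 was 0.027 with the covariate and 0.25 without the 4 arrays, where Mki67 was 0.09 and Cdk1 0.016. With single samples left out, Aurkb in wild type ran from -0.001 to 0.24. Genotype in hyperoxia ran from -0.15 to 0.14 for Kif23, -0.42 to 0.075 for Mki67, -0.34 to 0.051 for Top2a and -0.21 to 0.35 for Plk1. Genotype in normoxia ran from -0.16 to 0.13 for Aurkb, -0.11 to 0.13 for Kif23 and -0.041 to 0.46 for Cdk1, and the interaction from -0.17 to 0.12 for Kif23. A fit that leaves out 1 of the 2 Fgf10+/- hyperoxia arrays assumes that the lone array varies like the other groups. Dim members (14 with a mean under 6) limit what could be seen.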
